A study of Mus musculus with 8 samples.

Results

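The genes described here encode proteins of the intermediate filament family: the simple keratins *Krt7*, *Krt8*, *Krt18* and *Krt19*, vimentin (*Vim*), nestin (*Nes*), synemin (*Synm*) and the lamins *Lmna*, *Lmnb1* and *Lmnb2*. They were taken by gene symbol, and all 10 were among the 18990 genes of the deposited RNA-seq table. The table covers 8 libraries of total RNA from wild-type BL6 primary mouse embryonic fibroblasts (MEFs) in the first days of reprogramming to induced pluripotent stem cells. All of these cells were transduced with lentiviruses for rtTA and for the tet-STEMCCA cassette, which carries *Oct4*, *Sox2*, *Klf4* and *c-Myc* and is switched on by doxycycline. Every library is therefore a mixed population of transduced cells and not a clone. All were then transfected with pooled siRNAs at 40 nM, either against *Ncor1*, a corepressor that brings histone deacetylases to chromatin, or against *Oct4* (gene symbol *Pou5f1*), and were grown with doxycycline, chiron, the TGFb inhibitor Alk5i, ascorbic acid and LIF. RNA was collected at day 3 or day 6, which gives 4 groups, siNcor1 day 3, siNcor1 day 6, siOct4 day 3 and siOct4 day 6, each with 2 biological replicates. Cells treated with a non-targeting siRNA were not analysed here, so each comparison sets one knockdown against the other or one day against the other, and none says which knockdown departs from unperturbed reprogramming.

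Intermediate filaments are the rope-like part of the cytoskeleton, and which of them a cell builds is a classical sign of what kind of cell it is. Keratin filaments form only when a type II keratin (here KRT7 and KRT8) pairs with a type I keratin (here KRT18 and KRT19), and KRT8 with KRT18 is the first pair built by simple epithelia of the embryo. Vimentin is the type III filament of fibroblasts and other mesenchymal cells, nestin and synemin copolymerise with it. The lamins form the meshwork under the nuclear envelope, with A-type lamins (*Lmna*) typical of differentiated cells and B-type lamins (*Lmnb1*, *Lmnb2*) present in nearly all cells. When MEFs are reprogrammed they pass from a mesenchymal to an epithelial state, so the balance between vimentin and simple keratins is one of the customary readouts of these early days.

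The keratin pair whose members moved apart in these data is encoded by neighbouring genes. *Krt8* lies at chr15:101996698-102004482 on the minus strand of mm10 and *Krt18* at chr15:102028180-102032027 on the plus strand, with 23.7 kb between them. *Krt7* lies on the plus strand at chr15:101411043-101430313, 566 kb from *Krt8*. The RefSeq promoter table (GRCm38.p6) held 10 windows for 8 of the 10 genes, each with 250 bases before and 50 after an annotated start. The gene spans given here are those of GENCODE M21, where *Krt7*, *Krt8*, *Krt18* and *Vim* each extend upstream of the RefSeq start. The whole *Krt7* window lies inside its gene span. The windows of these 3 keratins and, for contrast, of *Vim* at chr2:13573927-13582826 are shown from their first base to 10 bases past the start, 5′ to 3′ on the strand of the gene, since their transcripts differed most between the knockdowns or dominate in level. Capitals mark matches, on either strand, to 6 motifs that were searched: TGANTCA (the AP-1 site), GGGCGG (the GC box), CAGGTG (the E-box of ZEB and SNAIL factors), CACGTG (the E-box of MYC), ATGCAAAT (the octamer) and TATAAA (the TATA box).
Krt8, chr15:102004333-102004592, minus strand: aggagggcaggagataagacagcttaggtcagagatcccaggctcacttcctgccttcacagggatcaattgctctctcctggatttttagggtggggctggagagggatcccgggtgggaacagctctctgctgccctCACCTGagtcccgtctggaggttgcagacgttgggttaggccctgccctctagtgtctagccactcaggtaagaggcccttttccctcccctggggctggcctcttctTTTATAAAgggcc
Krt18, chr15:102027966-102028225, plus strand: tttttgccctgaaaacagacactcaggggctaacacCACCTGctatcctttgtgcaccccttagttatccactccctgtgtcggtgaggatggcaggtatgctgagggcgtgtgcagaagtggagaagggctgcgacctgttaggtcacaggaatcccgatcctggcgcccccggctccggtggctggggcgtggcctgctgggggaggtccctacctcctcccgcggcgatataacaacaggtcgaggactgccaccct
Krt7, chr15:101412153-101412412, plus strand: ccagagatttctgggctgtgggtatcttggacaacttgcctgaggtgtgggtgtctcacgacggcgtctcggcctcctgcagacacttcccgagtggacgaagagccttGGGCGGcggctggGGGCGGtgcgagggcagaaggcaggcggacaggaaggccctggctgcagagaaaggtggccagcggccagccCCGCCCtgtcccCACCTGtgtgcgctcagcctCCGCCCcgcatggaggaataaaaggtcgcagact
Vim, chr2:13574061-13574320, plus strand: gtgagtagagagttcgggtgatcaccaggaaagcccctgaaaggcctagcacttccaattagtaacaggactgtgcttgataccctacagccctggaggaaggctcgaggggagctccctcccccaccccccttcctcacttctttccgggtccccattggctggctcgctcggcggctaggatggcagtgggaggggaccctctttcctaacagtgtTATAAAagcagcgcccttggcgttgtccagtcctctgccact

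All 3 keratin windows held CAGGTG, at −111 in *Krt8*, −214 in *Krt18* and −44 in *Krt7*, counting the first transcribed base as 0. This motif was in 20.2% of all 32851 windows, and among the 10 windows of these genes it was in 4, the fourth being 1 of the 2 windows of *Lmnb2*. *Krt7* also had 4 GC boxes, a motif found in 35.7% of windows, and *Krt8* had TATAAA on both strands in overlapping positions at its RefSeq start. The *Vim* window held TATAAA at −32, a motif in 13.6% of windows, and no match to the other 5. The octamer, present in 1.74% of all windows, was in 0 of the 10. Among the other genes, *Nes* had 2 GC boxes, *Lmnb2* 1 in its other window, *Lmna* 1 GC box and 1 AP-1 site in 1 of its 2 windows, and *Synm* 1 MYC E-box, motifs that occur in 7.81% (AP-1) and 7.15% (MYC E-box) of windows. These are matches of letters and no binding was measured in these libraries.

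The files hold log2-cpm values, that is, the log2 of CPM, a gene's reads scaled to a common total of reads on genes. The reads behind them, which could be recovered as whole numbers, came to between 7735742 and 16445192 per library, and 3 reads corresponded to between 0.174 and 0.380 CPM. A single non-coding gene, *Gm26917*, took between 15.5% and 29.1% of the reads, most in siOct4 day 6. *Ncor1* followed its label at day 3, when its level was 7.08 and 7.20 log2-cpm in siNcor1 against 7.82 and 7.94 in the other knockdown (log2 fold change 0.74 ± 0.12 (SE), adjusted p = 0.0139). Without control libraries this gives a difference between the knockdowns and not the extent of the knockdown. At day 6 the knockdowns did not differ by the test (−0.04 ± 0.12, adjusted p = 0.815). From day 3 to day 6 *Ncor1* was not called in siNcor1 (0.14 ± 0.12, adjusted p = 0.399) and fell in the other knockdown (−0.65 ± 0.12, adjusted p = 7.5e-04). *Pou5f1* did not follow its label, with log2-cpm of 7.53 and 7.62 under siOct4 against 7.63 and 7.68 in siNcor1 at day 3, and of 9.45 and 8.97 against 7.55 and 7.32 at day 6 (log2 fold change 1.78 ± 0.16, adjusted p = 1.1e-04). Reads of the endogenous gene and of the cassette cannot be told apart in these values, and *Sox2*, *Klf4* and *Myc*, which the cassette also carries, had log2 fold changes of 1.63, 1.67 and 1.59 at day 6. The libraries are therefore called the siOct4-labelled libraries. From separate time-course experiments, the paper reports that *Oct4* mRNA was silenced early and then recovered quickly. It attributes the recovery to high expression from the cassette. No library here was taken before day 3, so an earlier, transient knockdown was not tested. The 9 fibroblast markers examined, among them collagens and *Thy1*, were all measured in every group and summed to between 2494 and 10350 CPM.

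Differences were tested with limma over the 13866 genes that averaged at least 1 CPM, with the spread shared across the 4 groups, and were called at a Benjamini-Hochberg adjusted p under 0.05. All 10 genes passed the filter, the lowest group mean being 1.26 CPM for *Krt7* in the siOct4-labelled libraries at day 6. Values after ± are standard deviations for levels and standard errors for log2 fold changes, and each group has n = 2, so the p-values measure the spread between these pairs of libraries only. These are bulk samples, in which fewer cells of a type and less RNA per cell cannot be told apart.

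**Figure D1:**
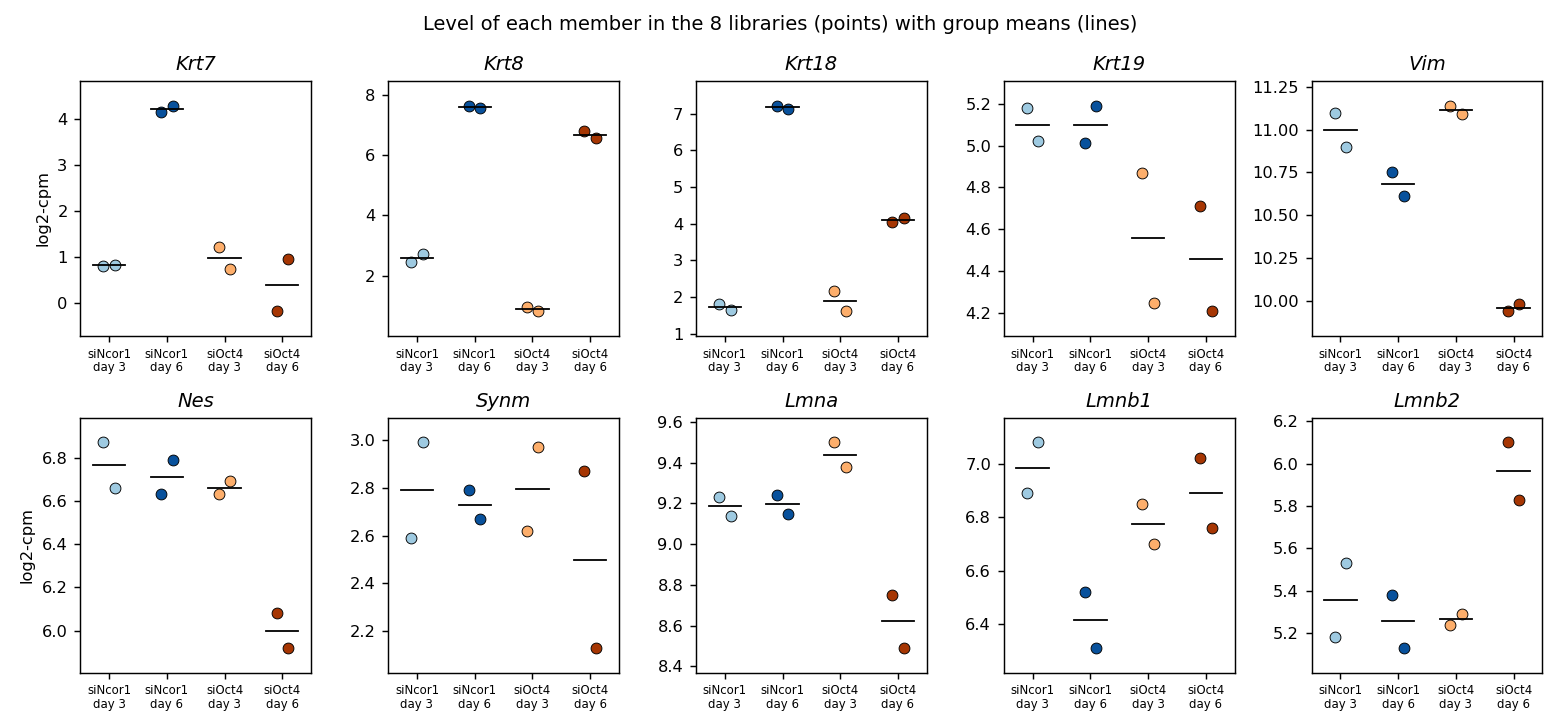
Level in log2-cpm (vertical axis) of each of the 10 genes in the 8 libraries, 1 panel per gene, with the groups along the horizontal axis; points are libraries and lines the means of 2, and each panel has its own vertical scale. *Krt8* and *Krt18* are at or above 7.14 log2-cpm in siNcor1 at day 6, whereas in the siOct4-labelled libraries at day 6 *Krt8* is at or above 6.55 and *Krt18* at 4.05 and 4.15.

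The type II keratin *Krt8* rose steeply between the days in both knockdowns. Its levels at day 3 were 2.45 and 2.73 log2-cpm in siNcor1 and 0.97 and 0.83 in the siOct4-labelled libraries, the latter resting on 27 and 13 reads. At day 6 they were 7.63 and 7.57 in siNcor1 and 6.79 and 6.55 in the siOct4-labelled libraries. No library of one group overlapped with another, and siNcor1 was the higher group at both days. The log2 fold change between the knockdowns, as siOct4 minus siNcor1, was −1.68 ± 0.16 at day 3 (adjusted p = 8.2e-04), a level 3.21-fold lower, and −0.94 ± 0.16 at day 6 (adjusted p = 0.00159), a level 1.91-fold lower. From day 3 to day 6 *Krt8* rose 32.3-fold in siNcor1 (log2 fold change 5.01 ± 0.16, adjusted p = 1.0e-08) and 54.3-fold in the siOct4-labelled libraries (5.76 ± 0.16, adjusted p = 2.0e-09). The latter was the 4th highest log2 fold change of all 13866 genes tested, and the former the 22nd. The narrowing of the knockdown difference from day 3 to day 6, a log2 change of 0.75 ± 0.22, passed the threshold (adjusted p = 0.0331) and was lost without any 1 of 5 libraries (adjusted p between 0.0620 and 0.139), namely siNcor1 day 3 replicate 2, either replicate of siNcor1 day 6, siOct4 day 3 replicate 2 or siOct4 day 6 replicate 1.

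Its type I partner *Krt18* took another course. At day 3 its levels were 1.82 and 1.63 log2-cpm in siNcor1 and 2.16 and 1.61 in the siOct4-labelled libraries, which overlap and did not differ by the test (log2 fold change 0.16 ± 0.19, adjusted p = 0.888). At day 6 they were 7.22 and 7.14 in siNcor1, from 1804 and 1680 reads, against 4.05 and 4.15 in the siOct4-labelled libraries, from 155 and 208 reads. The 2 groups were far apart at that day, with the siOct4-labelled libraries 8.47-fold lower (−3.08 ± 0.19, adjusted p = 9.2e-06), the 15th lowest log2 fold change of all genes tested. *Krt18* rose 43.9-fold between the days in siNcor1 (5.46 ± 0.19, adjusted p = 1.7e-08) and 4.64-fold in the siOct4-labelled libraries (2.22 ± 0.19, adjusted p = 4.7e-06). The rise differed between the knockdowns by −3.24 ± 0.28 on the log2 scale (adjusted p = 2.4e-04), with the smaller rise in the siOct4-labelled libraries.

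*Krt7*, a second type II simple keratin found mainly in ductal and glandular epithelia, rose in siNcor1 and was not called between the days in the siOct4-labelled libraries, and the test of that difference passed the threshold. Its levels at day 3 were 0.80 and 0.82 log2-cpm in siNcor1 and 1.20 and 0.73 in the siOct4-labelled libraries, from 12 to 32 reads per library. At day 6 they were 4.15 and 4.29 in siNcor1, from 214 and 231 reads, and −0.19 and 0.94 in the siOct4-labelled libraries, from 7 and 21 reads. The day 6 siOct4-labelled libraries thus lay within or below the range of day 3, while both siNcor1 libraries lay well above it. The log2 fold change between the days was 3.41 ± 0.35 in siNcor1 (adjusted p = 5.7e-05) and −0.59 ± 0.35 in the siOct4-labelled libraries (adjusted p = 0.179). Without siOct4 day 6 replicate 2 the latter was −1.16 and passed the threshold (adjusted p = 0.00799). At day 6 the knockdowns differed by −3.85 ± 0.35 (adjusted p = 1.4e-04), the 6th lowest log2 fold change of all genes tested, and this difference had shifted from day 3 by −4.00 ± 0.50 (adjusted p = 7.4e-04).

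*Krt19*, the type I keratin that lacks most of the tail domain and is encoded away from the others at chr11:100140810-100148665, was not part of this rise. Its levels were 5.18 and 5.02 log2-cpm at day 3 and 5.01 and 5.19 at day 6 in siNcor1, and 4.87 and 4.25 at day 3 and 4.71 and 4.21 at day 6 in the siOct4-labelled libraries. The days overlapped in both knockdowns (log2 fold changes 0.00 ± 0.21 and −0.10 ± 0.21, adjusted p = 0.997 and 0.727). Every siOct4-labelled library lay below every siNcor1 library, by −0.54 ± 0.21 at day 3 (adjusted p = 0.342) and by −0.64 ± 0.21 at day 6 (adjusted p = 0.0404). The day 6 call was lost without any 1 of 5 libraries (adjusted p between 0.0660 and 0.219), namely either replicate of siNcor1 at either day or siOct4 day 6 replicate 2.

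The make-up of the simple keratins therefore differed at day 6. Levels of different genes were compared per kb of the union of annotated exons, as CPM per kb. At day 3 *Krt19* made up most of the summed value of the 4 keratins, 77.1% in siNcor1 and 77.7% in the siOct4-labelled libraries (means of 2). At day 6 in siNcor1 *Krt8* and *Krt18* took nearly equal shares of 44.8% and 45.6%, and *Krt19* 8.36%. In the siOct4-labelled libraries *Krt8* took 68.4% at day 6, and *Krt18* and *Krt19* 15.7% each. The share of *Krt7* was between 0.244% and 1.58% in all groups, with the reserve that its exon union of 7049 bp is longer than its longest transcript of 4094 bp, which lowers its value per kb.

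**Figure D2:**
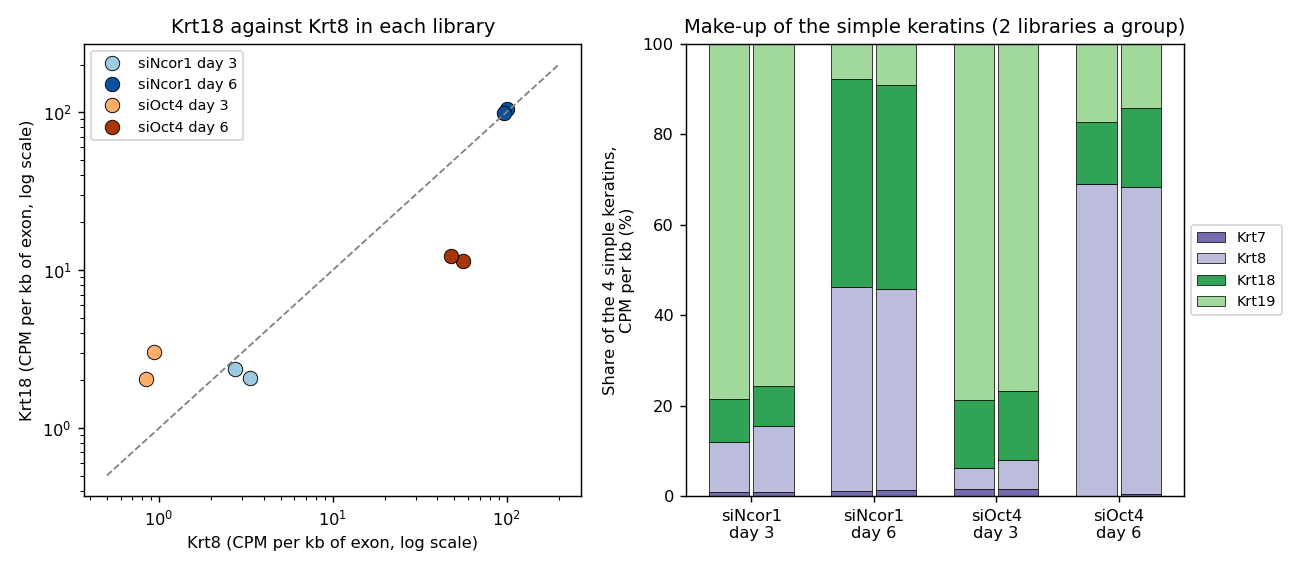
Left, *Krt18* (vertical) against *Krt8* (horizontal) in CPM per kb of exon, both on log scales, with 1 point per library and a dashed line where the values are equal; right, the share in % of each simple keratin in their summed CPM per kb, with 1 bar per library. Both siNcor1 day 6 libraries lie on the line and both siOct4-labelled libraries at day 6 lie below it, where *Krt8* makes up 68.4% of the sum on average.

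The ratio of *Krt18* to *Krt8* per kb, which does not depend on how the libraries are scaled, put the same pattern in 1 number per library. It was 0.871 and 0.620 in siNcor1 at day 3 and 1.02 and 1.01 at day 6. Its values in the siOct4-labelled libraries were 3.23 and 2.41 at day 3 and 0.202 and 0.257 at day 6. The day 3 values there rest on few reads, 64 and 23 of *Krt18* and 27 and 13 of *Krt8*. The partners were thus balanced in siNcor1 at day 6, whereas in the siOct4-labelled libraries the excess passed from *Krt18* to *Krt8*, a 12.2-fold fall of the ratio between the days. The knockdowns differed 3.79-fold at day 3 and 4.46-fold at day 6, in opposite directions, and in both cases the libraries did not overlap. Over all type I (*Krt18*, *Krt19*) to type II (*Krt7*, *Krt8*) simple keratins the ratio at day 6 was 1.17 and 1.18 in siNcor1 and 0.452 and 0.463 in the siOct4-labelled libraries. Exact permutation tests of these ratios gave p = 0.333 (two-sided), which is the smallest value that 2 libraries against 2 allow.

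The summed level of epithelial markers was also lower in the siOct4-labelled libraries at both days. The 8 epithelial markers examined (*Cdh1*, *Epcam*, *Cldn3*, *Cldn4*, *Cldn7*, *Esrp1*, *Ovol1* and *Grhl2*) were in the table and 7 were tested. Their summed level was 48.6 to 50.4 CPM in siNcor1 and 10.7 to 14.9 CPM in the siOct4-labelled libraries at day 3, and 352 to 381 CPM and 188 to 206 CPM at day 6. At day 3 *Cldn4*, *Ovol1* and *Grhl2* had 3 reads or fewer in both siOct4-labelled libraries, as *Ovol1* had in siNcor1, and none was at that level in any group at day 6. Of the 7, 4 were called as lower at day 3 and 5 at day 6 in the siOct4-labelled libraries. Of all genes tested 0.692% were called as lower at day 3 and 18.6% at day 6, and the marker counts that follow stand beside these shares. Of 5 keratinocyte markers 2 were tested and both were lower in the siOct4-labelled libraries at day 6, where the 5 summed to 21.5 to 26.9 CPM against 50.8 to 57.4 CPM in siNcor1. *Krt15* had 3 reads or fewer in all 4 groups. The trophoblast markers, a further lineage that builds simple keratins, summed to 32.3 to 32.4 CPM in siNcor1 and 10.3 to 13.1 CPM in the siOct4-labelled libraries at day 6. Of the 3 tested 2 were lower, and *Cdx2* was at 0 at day 3 in all libraries. The part of any of these cell types in the keratin values was not tested.

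*Vim* was by far the most abundant of the 10 genes. Its fall between the days was called only in the siOct4-labelled libraries, and the test of the difference between the knockdowns was also called. Its levels were 11.10 and 10.90 log2-cpm at day 3 and 10.75 and 10.61 at day 6 in siNcor1. These did not overlap, but the log2 fold change of −0.32 ± 0.16 did not pass the threshold (adjusted p = 0.139). It stayed between −0.42 and −0.22 with 1 library left out. The siOct4-labelled libraries had 11.14 and 11.09 at day 3 and 9.94 and 9.98 at day 6, so that *Vim* fell 2.23-fold (−1.16 ± 0.16, adjusted p = 9.9e-05). The knockdowns overlapped at day 3 (0.11 ± 0.16, adjusted p = 0.908), and at day 6 the siOct4-labelled libraries were 1.65-fold lower (−0.73 ± 0.16, adjusted p = 0.00593), a call lost without siNcor1 day 6 replicate 1 (−0.65, adjusted p = 0.0568). From day 3 to day 6 the knockdown difference shifted by −0.84 ± 0.22 (adjusted p = 0.0225).

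*Nes* (chr3:87971078-87980451), a filament protein of progenitor cells that needs vimentin to polymerise, was less abundant than *Vim*. It was likewise called between the days only in the siOct4-labelled libraries. It had 6.87 and 6.66 log2-cpm at day 3 and 6.63 and 6.79 at day 6 in siNcor1, which overlap. In the siOct4-labelled libraries it had 6.63 and 6.69 at day 3 and 6.08 and 5.92 at day 6, and so fell by 0.66 ± 0.12 on the log2 scale (adjusted p = 9.6e-04). Both day 6 siOct4-labelled libraries lay below the other 6 libraries, and the knockdowns differed by −0.71 ± 0.12 at that day (adjusted p = 0.00202), having shifted since day 3 by −0.60 ± 0.18 (adjusted p = 0.0326).

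*Synm* (chr7:67730160-67759742), whose large product links vimentin and desmin filaments to adhesion sites, was the only one of the 10 genes with no call in any of the 5 comparisons. Its levels, between 2.13 and 2.99 log2-cpm, overlapped in every comparison, and its log2 fold changes were between −0.30 and 0.01 with standard errors of 0.27, or 0.38 for the change between days. Without siOct4 day 6 replicate 1 its log2 fold change between the days in the siOct4-labelled libraries was −0.67 and passed the threshold (adjusted p = 0.0498). Its exons overlap those of *Ttc23* on the opposite strand.

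The ratio of the summed simple keratins to *Vim* per kb, which rests mostly on *Krt8*, *Krt18* and *Krt19*, was 0.0533 and 0.0572 in siNcor1 and 0.0420 and 0.0287 in the siOct4-labelled libraries at day 3, and 0.617 and 0.660 in siNcor1 and 0.395 and 0.331 in the siOct4-labelled libraries at day 6. The ratio was 11.6-fold higher at day 6 than at day 3 in siNcor1 and 10.4-fold higher in the siOct4-labelled libraries, and *Vim* stayed above the sum of the 4 keratins in all 8 libraries. With the longest transcript of *Vim*, 2926 bp against an exon union of 4743 bp, and of the keratins as length, the day 6 ratios were 0.389 and 0.417 in siNcor1 and 0.251 and 0.210 in the siOct4-labelled libraries. At day 6 it was 1.77-fold lower in the siOct4-labelled libraries although *Vim* was lower there too. The 9 fibroblast markers summed to 6262 to 6394 CPM at day 3 and 4536 to 4910 CPM at day 6 in siNcor1. In the siOct4-labelled libraries they summed to 8795 to 10350 CPM and 2494 to 2670 CPM. These sums were not tested between the days. Of the 9, 6 were called as lower than in siNcor1 at day 6, beside 18.6% of all genes tested. At day 3, 0 were called as higher and 0 as lower, beside 0.375% and 0.692%. Endothelial markers, another cell type with much vimentin, summed to 16.4 to 44.3 CPM and macrophage markers to 6.26 to 12.8 CPM over all 8 libraries, and the muscle marker measured, *Des*, came to 13.9 to 85.2 CPM. The neural progenitor markers *Sox2* and *Pax6* summed to 492 to 776 CPM in the siOct4-labelled libraries at day 6, a value that includes reads of the cassette. Their part in the values of *Vim* and *Nes* was not tested.

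**Figure D3:**
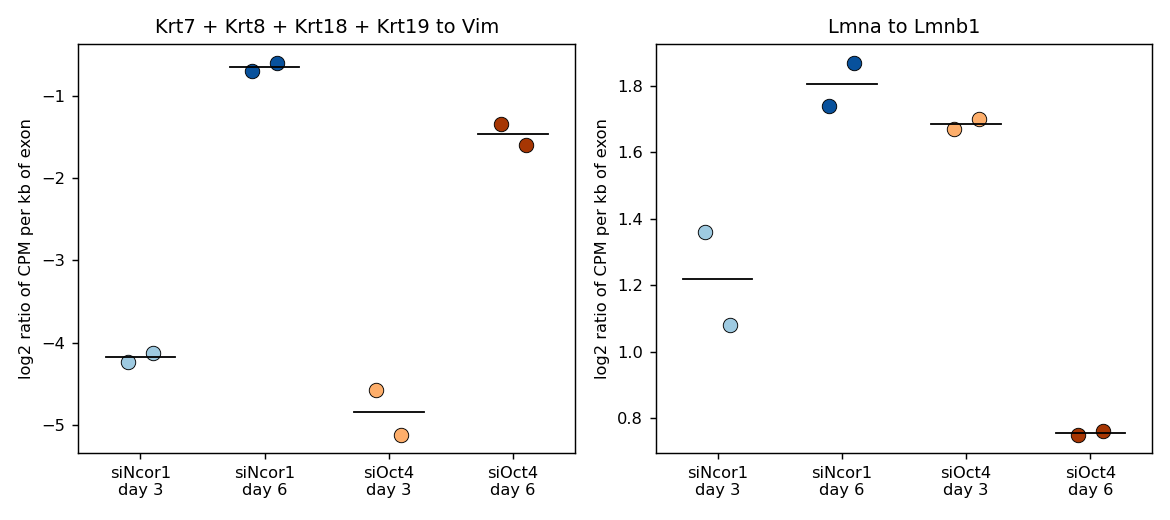
Log2 ratio of CPM per kb of exon (vertical axis) of the summed simple keratins to *Vim* (left) and of *Lmna* to *Lmnb1* (right) in the 8 libraries by group; points are libraries, lines the means of 2. The keratin ratio is higher at day 6 in both knockdowns, and the lamin ratio is lowest in the siOct4-labelled libraries at day 6, at 0.75 and 0.76.

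The lamins split by type at day 6. *Lmna* (chr3:88480147-88509956), which gives lamins A and C, had 9.23 and 9.14 log2-cpm at day 3 and 9.24 and 9.15 at day 6 in siNcor1. Its levels in the siOct4-labelled libraries were 9.50 and 9.38 at day 3 and 8.75 and 8.49 at day 6. The siNcor1 libraries overlapped between the days (0.01 ± 0.14, adjusted p = 0.963), and *Lmna* fell by 0.82 ± 0.14 on the log2 scale in the siOct4-labelled libraries (adjusted p = 3.9e-04). The knockdown difference was 0.25 ± 0.14 at day 3 (adjusted p = 0.579) and −0.57 ± 0.14 at day 6 (adjusted p = 0.00891), and its change was −0.83 ± 0.19 (adjusted p = 0.0121). The day 6 call was lost without either replicate of siNcor1 day 6 (adjusted p = 0.0686 without replicate 1 and 0.0566 without replicate 2).

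The B-type lamins went the other way. *Lmnb1* had 6.89 and 7.08 log2-cpm at day 3 and 6.52 and 6.31 at day 6 in siNcor1, and fell by 0.57 ± 0.14 on the log2 scale (adjusted p = 0.00745), a call lost without siNcor1 day 3 replicate 2 or siNcor1 day 6 replicate 2 (adjusted p between 0.0809 and 0.0828). Its levels in the siOct4-labelled libraries were 6.85 and 6.70 at day 3 and 7.02 and 6.76 at day 6, which overlap (0.12 ± 0.14, adjusted p = 0.502). *Lmnb2* (chr10:80901203-80918245) had 5.18 and 5.53 log2-cpm at day 3 and 5.38 and 5.13 at day 6 in siNcor1, and 5.24 and 5.29 at day 3 and 6.10 and 5.83 at day 6 in the siOct4-labelled libraries, where it rose by 0.70 ± 0.16 on the log2 scale (adjusted p = 0.00255). With quantile normalisation the fall of *Lmnb1* in siNcor1 missed the threshold (−0.38, adjusted p = 0.0515) and its log2 fold change in the siOct4-labelled libraries passed it (0.37, adjusted p = 0.0433). The data do not settle in which knockdown it moved. Both B-type lamins were higher in the siOct4-labelled libraries at day 6. The log2 fold changes between the knockdowns were 0.48 ± 0.14 for *Lmnb1* (adjusted p = 0.0220) and 0.71 ± 0.16 for *Lmnb2* (adjusted p = 0.00607), and both calls were lost without siNcor1 day 6 replicate 2 (adjusted p = 0.199 for *Lmnb1* and 0.0777 for *Lmnb2*), that of *Lmnb1* also without siOct4 day 6 replicate 1 (adjusted p = 0.0888). From day 3 to day 6 the difference shifted by 0.69 ± 0.19 for *Lmnb1* (adjusted p = 0.0280) and 0.80 ± 0.22 for *Lmnb2* (adjusted p = 0.0254).

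The ratio of *Lmna* to *Lmnb1* per kb of exon union, often read as an index of nuclear stiffness and differentiation, was 2.57 and 2.11 at day 3 and 3.35 and 3.64 at day 6 in siNcor1. In the siOct4-labelled libraries it was 3.19 and 3.25 at day 3 and 1.68 and 1.70 at day 6. It was thus higher at day 6 in siNcor1 and lower in the siOct4-labelled libraries, which at day 6 were 2.07-fold lower, with no overlap between the groups. With *Lmnb2* added to the denominator it was 2.55 and 2.79 in siNcor1 and 1.23 and 1.24 in the siOct4-labelled libraries at day 6. Loss of *Lmnb1* is a known mark of cells that have left the cell cycle for good. Of 8 cycling genes examined 3 were called as higher in the siOct4-labelled libraries at day 6, beside 12.1% of all genes tested. They were *Pcna* (log2 fold change 0.76, adjusted p = 0.00301), *Mcm5* (0.50, adjusted p = 0.0230) and *Rrm2* (0.38, adjusted p = 0.0354). The median over the 8 was 0.38 against −0.03 over all genes tested. None of the 8 was called at day 3 by limma on the log2 values or on the recovered reads, nor at an unadjusted p under 0.05 (0 in each case). Between the days 0 of the 8 were called as higher and 4 as lower in siNcor1, beside 13.8% and 20.9% of all genes tested. In the siOct4-labelled libraries 2 were higher and 3 lower, beside 22.2% and 30.5%. For the shift of the knockdown difference only *Pcna* was called, as higher, beside 7.77% of all genes tested. The part of cell division in the lamin values was not tested.

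**Figure D4:**
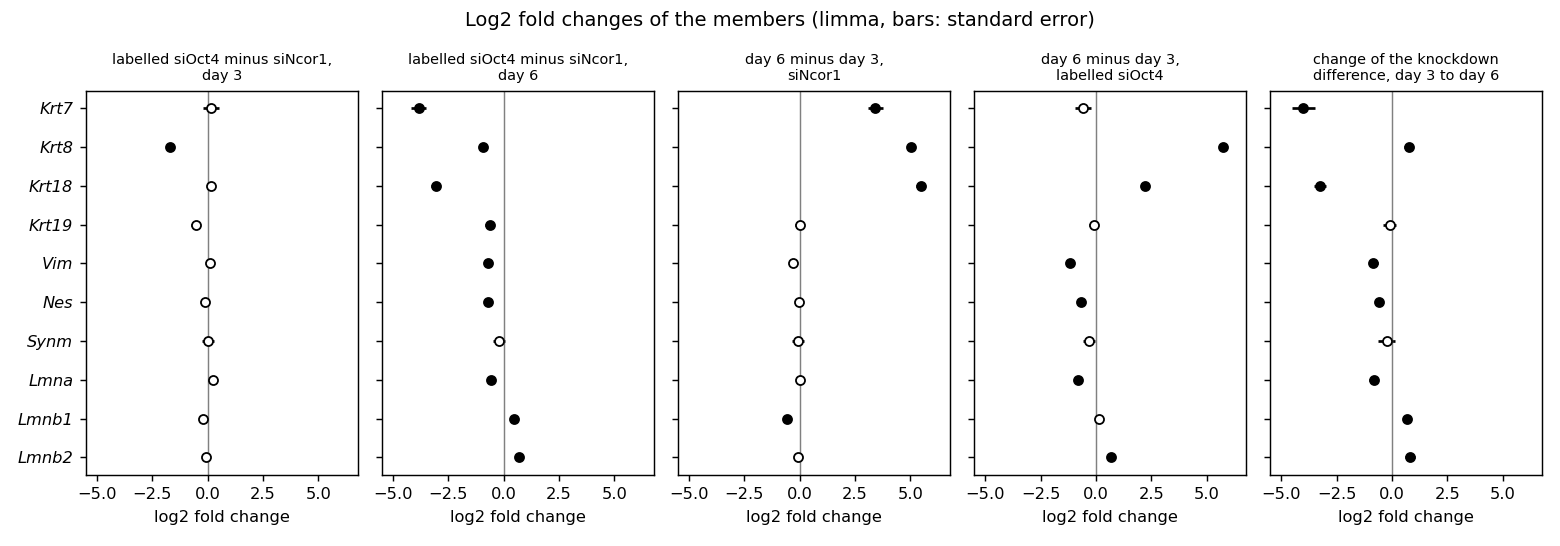
Log2 fold change (horizontal axis) of the 10 genes in the 5 comparisons, from left to right the knockdowns at day 3, at day 6, the days in siNcor1, the days in the siOct4-labelled libraries and the shift of the knockdown difference with time; bars are standard errors and filled points have an adjusted p under 0.05. At day 3 only *Krt8* is filled, at day 6 all but *Synm*.

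Counted together, 1 of the 10 genes was called between the knockdowns at day 3 (*Krt8*, lower in the siOct4-labelled libraries). At that day 1.07% of all genes tested were called, 0.375% of all tested as higher and 0.692% as lower. At day 6 9 of the 10 were called, 2 as higher (*Lmnb1* and *Lmnb2*) and 7 as lower (*Krt7*, *Krt8*, *Krt18*, *Krt19*, *Vim*, *Nes* and *Lmna*), against 30.7% of all genes tested, 12.1% as higher and 18.6% as lower. The median log2 fold change of the 10 was −0.04 at day 3 and −0.68 at day 6, beside −0.02 and −0.03 over all genes tested. The day 6 count was 5 without siNcor1 day 6 replicate 2 and 6 without replicate 1 of that group, and at least 8 without any other library.

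Between the days 4 of the 10 were called in siNcor1, 3 as higher (*Krt7*, *Krt8* and *Krt18*) and 1 as lower (*Lmnb1*), against 34.8% of all genes tested (13.8% higher, 20.9% lower). In the siOct4-labelled libraries 6 were called, 3 as higher (*Krt8*, *Krt18* and *Lmnb2*) and 3 as lower (*Vim*, *Nes* and *Lmna*), against 52.7% of all genes tested (22.2% higher, 30.5% lower). These counts are close to the share over all genes. By size, the rises of *Krt18*, *Krt8* and *Krt7* in siNcor1 ranked 16th, 22nd and 68th from the top of all genes tested. Those of *Krt8* and *Krt18* in the siOct4-labelled libraries ranked 4th and 312th, whereas *Krt7* there and *Krt19* in both knockdowns were not called. Of all calls between the days 39.8% were higher at day 6 in siNcor1 and 42.1% in the siOct4-labelled libraries, which became 50.3% and 53.3% with library totals that leave out *Gm26917*, with the same number of calls among the 10 genes.

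For the shift of the knockdown difference with time, 8 of the 10 were called, 3 as higher (*Krt8*, *Lmnb1* and *Lmnb2*) and 5 as lower (*Krt7*, *Krt18*, *Vim*, *Nes* and *Lmna*), against 20.7% of all genes tested (7.77% higher, 12.9% lower). Only *Krt7* and *Krt18* kept this call without siNcor1 day 3 replicate 2, when the count was 2. The count was 3 without siOct4 day 3 replicate 2 or without siNcor1 day 6 replicate 2, and 4 without siNcor1 day 6 replicate 1. The shift of *Vim* was lost without any 1 of these 4 libraries (adjusted p between 0.0536 and 0.120), that of *Nes* without these or siOct4 day 3 replicate 1 (0.0566 to 0.148) and that of *Lmna* without siNcor1 day 3 replicate 2 or siNcor1 day 6 replicate 1 (0.0540 to 0.0709). For *Lmnb1* it was lost without siNcor1 day 3 replicate 2, siOct4 day 3 replicate 2 or siNcor1 day 6 replicate 2 (0.111 to 0.133), and for *Lmnb2* without these or siOct4 day 3 replicate 1 (0.0707 to 0.128).

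In order of level per kb, *Vim* led in every group, with group means between 210 and 468 CPM per kb, followed at day 3 by *Lmna* and then *Lmnb1*. *Krt8* and *Krt18* stood at 3.02 and 2.21 CPM per kb in siNcor1 at day 3, below *Krt19* at 18.4, *Nes* at 17.0 and *Lmnb2* at 9.58, and above *Synm* at 0.864 and *Krt7* at 0.229. Of these neighbours only *Krt19* and *Nes* overlapped, which they no longer did with the longest transcript as length (21.7 and 17.8). At day 6 in siNcor1 *Krt18* stood at 101 and *Krt8* at 99.3 CPM per kb, values whose libraries overlap and which are the same with either length. Where *Lmna* stood beside them depends on its length, since it had 100 CPM per kb over its exon union of 5838 bp but 148 over its longest transcript of 3948 bp, which did not overlap with the keratins. In the siOct4-labelled libraries *Krt8* passed from 0.887 at day 3, where it overlapped with *Synm* at 0.867, to 52.0 at day 6, above *Lmnb1* at 40.2 and below *Lmna* at 67.8. *Krt18* reached 11.8 CPM per kb there and overlapped with *Krt19*, which in turn overlapped with *Lmnb2* at 14.6. The mean of *Nes*, 9.98, lay below those of all 3, but its libraries (10.5 and 9.42) overlapped with those of *Krt19* (14.1 and 9.93).

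The wider filament and nuclear envelope genes were examined as lists, whose day 6 counts stand beside 12.1% of all genes tested called as higher and 18.6% as lower. The 25 other cytoplasmic intermediate filament genes were a set of named non-keratin genes and the further numbered keratin genes of the table. The list thus holds no keratin missing from the table. Of the 25, 24 were in the table and 10 were tested, and at day 6 limma called 4 of these as lower (5 on the recovered reads) and 0 as higher (0 on the recovered reads, 1 at an unadjusted p under 0.05) in the siOct4-labelled libraries, with a median log2 fold change of −0.76. The neurofilament gene *Nefm* had a log2 fold change of −1.47 (adjusted p = 3.2e-04). *Krt16*, a type I keratin of stressed epidermis, had 0 reads in all 4 day 3 libraries, 50 and 50 reads in siNcor1 at day 6 and 2 and 3 reads in the siOct4-labelled libraries at day 6. It reached a mean of 1 CPM, and so was tested, only through siNcor1 day 6. Its place among the 4 lower genes therefore follows in part from that filter and is no separate support. *Krt80* had 25 and 31 reads in siNcor1 at day 6 and 3 and 2 in the siOct4-labelled libraries. Of the 10 filament linkers tested, which tie filaments to desmosomes and other junctions, 1 was higher and 4 were lower at day 6, among them *Ppl* (periplakin, −1.95, adjusted p = 1.3e-04), *Jup* (plakoglobin, −1.33, adjusted p = 2.9e-04) and *Plec* (plectin, −0.91, adjusted p = 0.00273), and the list had a median of −0.34.

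Of the 15 lamin partners and nuclear envelope genes, 3 were higher and 4 lower at day 6 in the siOct4-labelled libraries, with a median log2 fold change of 0.04. The lower ones included *Syne3* (−0.67, adjusted p = 0.00263), *Sun2* (−0.98, adjusted p = 0.00313) and *Syne1* (−0.80, adjusted p = 0.00317), which belong to the LINC complexes that tie the nucleus to the cytoskeleton, the higher ones *Banf1*, *Sun1* and *Tmpo*. Of the 6 lamin maturation enzymes 1 was called, *Rce1*, a protease that trims prenylated proteins, as higher (0.52, adjusted p = 0.0366), with a median of −0.13 over the list. At day 3 limma called 0 genes of these 4 lists, on the log2 values and on the recovered reads alike. At an unadjusted p under 0.05 there were 3 of 10 other filament genes, 5 of 10 linkers, 1 of 15 lamin partners and 0 of 6 maturation enzymes at that day, beside 10.5% of all genes tested.

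The genes whose log2-cpm followed these most closely over the 8 libraries were found by Pearson correlation, given as a description since the libraries share 4 groups. For *Krt8* they were *Rab25* (r = 0.997), *Ap1m2* (0.997) and *Clec2f* (0.995), with 222 tested genes at 0.95 or above. For *Vim* they were *Erbb2* (0.995), *Marveld1* (0.995) and *Ube2r2* (0.994), with 628 such genes, and for *Lmna* *Plekhf1* (0.991), *Rin1* (0.986) and *Smarcc2* (0.985), with 128. For *Lmnb1*, encoded at chr18:56707813-56753424, they were *0610009O20Rik* (0.985), *Msto1* (0.972) and *Hdgf* (0.971), with 15, so that its course was shared by far fewer genes than that of *Vim*. Some reads of *Krt8* may come from the opposite strand or from copies, since its exons overlap those of the non-coding *Gm36026* and 1 pseudogene carries its name, and the exons of *Krt7* overlap the antisense gene *Gm671*. How reads on such overlaps were counted is not given in the sources used here.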

How the data were processed

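RNA-seq libraries were made from 200 ng total RNA after ribosomal RNA removal. The authors aligned reads to mm10 with STAR 2.5.2b and deposited log2-cpm values computed with edgeR 3.20.9 (submitters' processing notes). The counting tool is not given in the sources used here. Subtracting the constant behind the lowest deposited log2 value (−2.87, for 0 reads) gave whole reads within 0.1 read for 100% of values. Replicates differed by more than the counting error of their reads (chi-square over its degrees of freedom 9.46 to 22.1). Intervals from reads would cover counting error only.

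GENCODE M21 held 18969 of the 18990 gene identifiers. The 13866 genes averaging at least 1 CPM were tested with limma 3.58.1 in R 4.3.3 (lmFit, eBayes with trend, 4 groups fitted together, Benjamini-Hochberg at 0.05), after the script was tested on simulated data. The 10 genes and the lists were chosen with earlier results of these data known. All 10 genes are named, with at most 3 genes per list by adjusted p at day 6. Ratios used exon-union lengths and exact permutation tests (scipy 1.17.1). Figures were drawn with matplotlib 3.10.9. Alternatives were other scalings, filters, pseudocounts and fits, and leaving out each library.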

Additional observations from a re-analysis of the deposited data

Results flagged for a closer look

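The limma test of the change itself called 8 of the 10 genes for a knockdown difference that shifted from day 3 to day 6. Of all genes tested 20.7% were so called. The count was 4 without the variance trend, and the calls lost without single libraries are given above. The change on the log2 scale, as the difference at day 6 minus that at day 3, was −4.00 for *Krt7*, −3.24 for *Krt18* and 0.75 for *Krt8*, so the keratins of chromosome 15 did not move alike. It was −0.84 for *Vim*, −0.60 for *Nes* and −0.83 for *Lmna*, all lower in the siOct4-labelled libraries at the later day, and 0.69 for *Lmnb1* and 0.80 for *Lmnb2*, both higher there. Groups of 2 are too small for a test of single libraries that stand apart.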

How the results depend on the processing

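Of the results for single genes, 510 of those under other settings and 340 of those with 1 library left out kept their direction and their side of the threshold, 12 and 36 lost a call, and 1 and 2 gained one. The others, 7 and 22, turned direction, and all of them belong to differences that were not called. Between the knockdowns at day 3, *Synm* was at −0.03 with totals without *Gm26917* and with voom on the recovered reads. Between the days, *Nes* in siNcor1 was at 0.15 with quantile normalisation and 0.02 with those totals, *Synm* in siNcor1 at 0.01 with those totals, *Lmnb2* in siNcor1 at 0.02 with quantile normalisation and *Krt19* in the siOct4-labelled libraries at 0.04 with those totals.

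With 1 library left out at a time, the log2 fold changes at day 3 ran from −0.08 to 0.39 for *Krt7*, −0.12 to 0.43 for *Krt18*, −0.19 to 0.21 for *Synm* and −0.27 to 0.09 for *Lmnb2*, and that of *Synm* at day 6 from −0.60 to 0.14. Between the days in siNcor1 they ran from −0.09 to 0.09 for *Krt19*, −0.16 to 0.05 for *Nes*, −0.27 to 0.14 for *Synm*, −0.04 to 0.06 for *Lmna* and −0.27 to 0.08 for *Lmnb2*, and in the siOct4-labelled libraries from −0.41 to 0.22 for *Krt19*, −0.67 to 0.07 for *Synm* and −0.02 to 0.25 for *Lmnb1*. The shift of the knockdown difference ran from −0.41 to 0.21 for *Krt19* and −0.61 to 0.14 for *Synm*.

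The count among the 10 genes ran from 5 to 9 at day 6 and from 2 to 8 for the shift with time, which was 4 without the variance trend. Over all genes the calls were 148 at day 3, but 43 without the trend, 81 with a mean of at least 10 CPM and 3 to 375 with 1 library left out. They ran from 1398 to 4669 at day 6, 2360 to 5954 between the days in siNcor1 and 1009 to 3667 for the shift. Without the trend the calls of *Krt19* and *Lmnb1* at day 6 and those of *Krt8*, *Nes*, *Lmnb1* and *Lmnb2* for the shift were lost, that of *Krt19* at day 6 also with no filter, that of *Lmnb1* at day 6 with only the groups compared, the shift of *Krt8* with a pseudocount of 1 or voom and that of *Nes* with totals without *Gm26917*. The cause was not tested.

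Nothing in the labels ties same-numbered replicates to a shared batch, and the data do not settle it: the deviations of same-numbered libraries correlated between −0.0395 and 0.281, with 3 of 6 group pairs above 0.1, so the libraries were not paired. With the replicate number as a replicate block, 1, 9, 4, 6 and 8 of the 10 genes were called in the 5 comparisons and 222 of all genes at day 3. The fit of only the groups compared gives no shift with time. The longest transcript as length, in place of the exon union, lowered the keratin to *Vim* ratios as given above. Depth limits *Krt7* most, with 7 reads in its lowest library.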
